A study of Mus musculus with 6 samples.

Results

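The interleukin-1 (IL-1) family genes, receptors and IRAK kinases described here were the 10 genes Il33, Il1rn, Il1r1, Il1rap, Il1rl1, Irak1, Irak2, Irak3, Irak4 and Traf6, chosen by name among the 54532 genes of the table. RNA sequencing had measured them in 6 libraries of mouse vascular smooth muscle cells (VSMCs), in 2 groups of 3. According to the study these were smooth muscle cells of the mouse aorta. The labels give the genotype as WT in 1 group and as overexpression in the other. Both groups carried an adenoviral vector, with a control plasmid in the group labelled Ad-Con and with an overexpression plasmid for pyruvate dehydrogenase kinase 4 in the group labelled Ad-PDK4. According to the study, cells of both groups had also been treated with angiotensin II, which the labels do not mention, so cells without that hormone were not analysed here. The comparison asked how PDK4 overexpression alters gene expression in these cells, and here how it bears on IL-1 signalling genes.

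IL-1 family cytokines act through receptors whose inner domain resembles that of Toll-like receptors. Ligand binding brings the shared chain IL1RAP to the ligand's own receptor, the adaptor MYD88 is recruited, IRAK4 activates IRAK1 and IRAK2, and the ubiquitin ligase TRAF6 passes the signal on to TAK1, the IKK complex and the MAP kinases. The pathway has built-in brakes: IL1RN occupies the IL-1 receptor without signalling, and IRAK3 holds back the release of IRAK1 from the receptor complex. In the arterial wall the pathway is known for driving cytokine, chemokine and protease output.

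Levels are given as FPKM, fragments scaled by gene length and by sequencing depth, and as reads recovered from it. The libraries held between 17588942 and 21861872 assigned reads, so that 1 read in a 1-kb gene was worth 0.0453 to 0.0571 FPKM. Counts and limits below cover counting error only. Pdk4 itself was lower in the libraries labelled Ad-PDK4 (7.48 ± 0.162 against 10.0 ± 0.469 FPKM, mean ± SD, n = 3), by 0.42 on the log2 scale, with an adjusted p of 1.1e-03 by limma. For its PDK4 plasmid the study lists the same primer pair that it lists for mouse PDK4. It does not say whether the adenoviral vector carried that insert, and it does not print the insert's sequence. Whether reads from the insert counted towards this mouse gene was not tested. The value thus does not show the overexpression that the label names, and every direction below refers to the libraries by their labels. The defining smooth muscle markers Myh11 (2 to 10 reads) and Tagln (4 to 20 reads) were near 0 in all libraries, although Acta2 was present at 33.5 to 78.7 FPKM. The 8 fibroblast markers summed to 1443–1569 FPKM in Ad-Con and 931–996 in Ad-PDK4. Most of that sum was Col1a1, which fell by 1.28 on the log2 scale, as did Dpt (-1.36), Lum (-1.16) and, named after its value was seen, Col3a1 (-0.86), while Ly6a (3.90) and Dcn (0.83) rose. The 10 smooth muscle markers summed to 172–173 and 134–145 FPKM, where Acta2 (-1.11) and Tpm2 (-0.33) fell and Cald1 (0.36) rose. The share of these changes in the results below was not tested. The study calls the libraries of a group biological replicates. The labels do not say what separated them, so p-values measure the spread between these libraries.

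Of the 10 genes, Il33, Il1rap and Irak3 rose in the libraries labelled Ad-PDK4, Irak4 fell, and Il1r1, Il1rl1, Irak1, Irak2 and Traf6 did not pass the test. Il1rn was too low to be tested. A gene was called at a Benjamini-Hochberg adjusted p below 0.05 by limma on log2(FPKM + 0.1), over the 13423 genes that reached 0.5 FPKM on average. The 4 calls among 9 tested genes were 44.4%, against 42.7% of all tested genes (21.8% higher and 20.8% lower), so their number did not set the family apart. Their median log2 change was 0.01, against -0.003 over all tested genes. Il33 was the 1 gene of the 9 that rose by at least 2-fold, where 3.95% of all tested genes did. It averaged 0.136 FPKM in Ad-Con and met the 0.5 FPKM limit only through Ad-PDK4 (1.23). Being tested thus depended on its being high there, so its call and this count are no independent evidence. In bulk RNA, fewer cells of a type and less RNA per cell cannot be told apart.

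**Figure D1:**
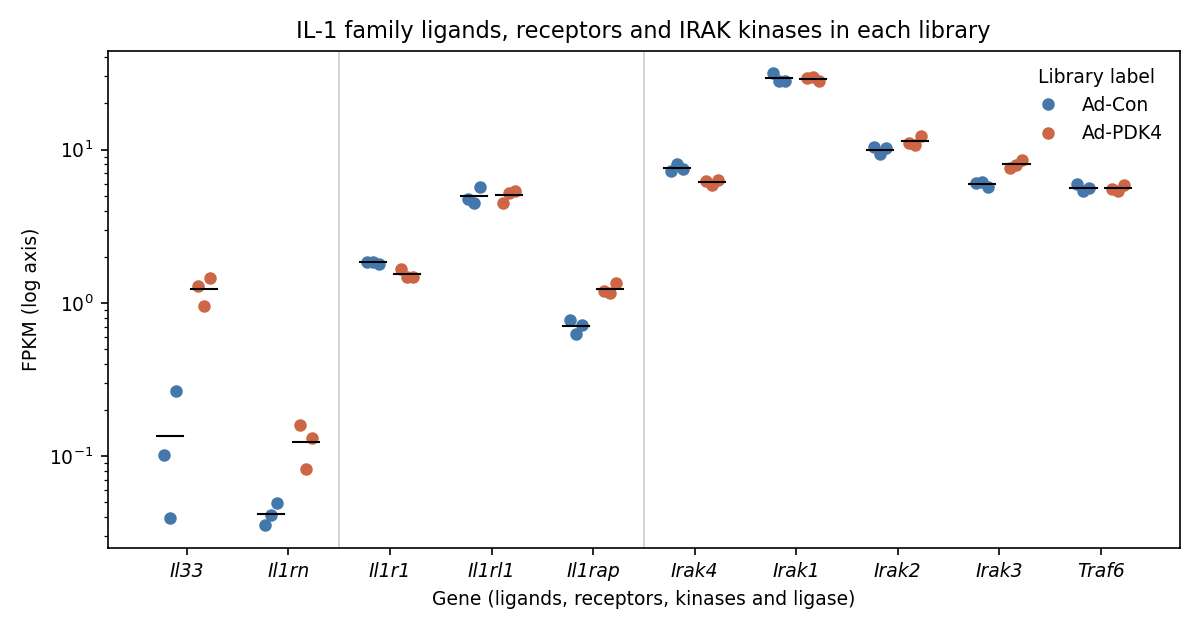
Level of each of the 10 genes in each library, as FPKM on a log axis, with blue points for Ad-Con, red points for Ad-PDK4 and a short line at the mean of each group of 3. Il33 and Il1rn sit far below the other genes in Ad-Con, and the Ad-PDK4 points of Il33 stand above all Ad-Con points.

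The levels spanned a wide range. In Ad-Con the order from high to low was Irak1, Irak2, Irak4, Irak3, Traf6, Il1rl1, Il1r1, Il1rap, Il33 and Il1rn, from 29.2 FPKM for Irak1 to 0.0422 for Il1rn. Neighbours whose libraries overlapped in Ad-Con were Irak3 and Traf6, Traf6 and Il1rl1, and Il33 and Il1rn. In Ad-PDK4 the order was Irak1, Irak2, Irak3, Irak4, Traf6, Il1rl1, Il1r1, Il33, Il1rap and Il1rn, and among neighbours Il33 and Il1rap overlapped. Irak3 and Irak4 thus changed places, with no overlap between them in either group. The intracellular kinases and the ligase were more abundant than every receptor in both groups by their means, and the receptors more abundant than the ligand Il33 and the antagonist Il1rn in Ad-Con.

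Il33 encodes IL-33, a nuclear cytokine that is released from damaged cells as an alarm signal and binds the receptor IL1RL1. The gene lies on chromosome 19 from 29925114 to 29960718 on the plus strand (GRCm38, as for all positions here). Its level was 0.102, 0.0395 and 0.268 FPKM in the 3 Ad-Con libraries and 1.29, 0.95 and 1.46 FPKM in the 3 Ad-PDK4 libraries. These were 6, 2 and 14 reads against 68, 48 and 93. Every Ad-PDK4 library lay above every Ad-Con library. The mean rose from 0.136 ± 0.118 to 1.23 ± 0.260 FPKM, a ratio of 9.05. The ratio was 17.4 without Ad-Con replicate 3, the highest of its group, and 6.68 without Ad-Con replicate 2, the lowest. On the log2(FPKM + 0.1) scale the rise was 2.59 (SE 0.43, 95% interval 1.60 to 3.59, adjusted p = 2.1e-03). The size also moved with the pseudocount at these low Ad-Con counts, with a log2 change of 0.97 at a pseudocount of 1 and 3.41 at 0.01, past the threshold in both.

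The annotation gives Il33 5 transcripts, and RefSeq gives it 2 start sites 20677 bases apart. Gene-level values do not tell which start was used. Both promoters are shown because Il33 changed most among the 10 genes, each with the 250 bases before the start site and 30 after it (RefSeq, GRCm38.p6), at chr19:29924863-29925142 and chr19:29945540-29945819 on the plus strand.
Il33 upstream start: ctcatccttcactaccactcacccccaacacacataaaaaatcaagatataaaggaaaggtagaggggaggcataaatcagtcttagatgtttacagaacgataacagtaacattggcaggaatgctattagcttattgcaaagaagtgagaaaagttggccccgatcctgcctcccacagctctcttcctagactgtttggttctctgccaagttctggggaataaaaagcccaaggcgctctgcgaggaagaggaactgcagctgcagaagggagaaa
Il33 downstream start: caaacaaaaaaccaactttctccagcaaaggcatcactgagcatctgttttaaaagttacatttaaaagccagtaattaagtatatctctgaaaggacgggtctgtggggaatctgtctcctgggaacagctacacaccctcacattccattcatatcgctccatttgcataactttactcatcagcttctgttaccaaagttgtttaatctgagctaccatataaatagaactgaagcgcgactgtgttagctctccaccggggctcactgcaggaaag
Neither full 300-base window, which reaches 50 bases past the start, held any of the motifs searched on both strands. These were the interferon-stimulated response element core (GAAA, any 2 bases, GAAA), the NF-kB consensus, the gamma-activated site TTCNNNGAA and the AP-1 site TGANTCA. Among 32851 such mouse windows, 3.44% held the first, 8.46% the second, 8.3% the gamma-activated site and 7.81% the AP-1 site. A missing match says only that these letters were not in the window.

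The genes most like Il33 across the 6 libraries, among the 7731 genes that averaged 5 FPKM or more, were Ptgs2 (Pearson r 0.998), Msmo1 (r 0.998) and Kif5b (r 0.995). Ptgs2 encodes the inducible cyclooxygenase and Msmo1 an enzyme of cholesterol synthesis, while Kif5b is a kinesin motor. The 6 points shared their group difference and library scaling, and 385 genes (4.98%) had an r above 0.95.

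Il1rn encodes the IL-1 receptor antagonist. It had 4, 4 and 5 reads in Ad-Con and 16, 8 and 16 reads in Ad-PDK4, or 0.0355, 0.0412 and 0.0498 against 0.159, 0.0826 and 0.131 FPKM. All Ad-PDK4 libraries were higher and the groups did not overlap, but the counts were few. The ratio of the mean FPKM was 2.94. Below the limit on mean FPKM it entered no main test. With no such limit its log2 change was 0.64 with an adjusted p of 0.191, where 20.5% of 25202 genes were called. The gene closes a 198-kb run of 6 IL-1 family genes on chromosome 2 (24153161 to 24351494), in which Il36b, Il36g, Il36a, Il36rn and Il1f10 had 0 reads in all 6 libraries.

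Il1r1 encodes the signalling receptor for IL-1 alpha and beta. Its level was 1.86, 1.86 and 1.79 FPKM in Ad-Con and 1.68, 1.48 and 1.49 in Ad-PDK4. The Ad-PDK4 libraries were all lower, without overlap. The change of -0.24 (95% interval -0.50 to 0.03) did not pass the test (adjusted p = 0.129). Moderation without trend and robust settings gave an adjusted p of 0.0353, so the call rested on that setting. Groups did not overlap for 54.3% of all tested genes and for 6 of the 9 tested here.

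Il1rap encodes the accessory chain that the receptors for IL-1, IL-33 and IL-36 share. Its level was 0.778, 0.632 and 0.714 FPKM in Ad-Con and 1.19, 1.16 and 1.35 in Ad-PDK4, from 126 to 180 and 231 to 338 reads. Every Ad-PDK4 library was above every Ad-Con library. The mean rose from 0.708 ± 0.0736 to 1.23 ± 0.0998 FPKM, a ratio of 1.74, and by 0.72 on the log2 scale (SE 0.17, 95% interval 0.32 to 1.12, adjusted p = 0.0113). With a pseudocount of 1 the rise was 0.39, still past the threshold. The gene spans chromosome 16 from 26581704 to 26730117 on the plus strand and has 7 annotated transcripts, so membrane-bound and soluble forms were not separated. Its promoter is shown because it was the 1 window among the 17 windows of the 10 genes that held the interferon-stimulated response element core, in capitals, 21 to 30 bases after the start (RefSeq, GRCm38.p6, chr16:26581455-26581734, plus strand).
Il1rap: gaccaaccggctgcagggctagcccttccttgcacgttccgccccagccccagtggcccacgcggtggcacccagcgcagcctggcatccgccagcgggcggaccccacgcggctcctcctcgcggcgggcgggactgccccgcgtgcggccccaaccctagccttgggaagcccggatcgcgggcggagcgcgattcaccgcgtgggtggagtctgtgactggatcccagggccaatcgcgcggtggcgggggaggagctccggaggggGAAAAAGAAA
The match describes letters and no binding was measured. An NF-kB consensus match stood in 1 Il1r1 window and in both overlapping Irak1 windows, where it is the same site, and an AP-1 match in 1 Il1rn window. No window of the 10 genes held the gamma-activated site.

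Il1rl1 encodes the IL-33 receptor, known as ST2, which also has a soluble form that traps the cytokine. Its level was 4.75, 4.48 and 5.72 FPKM in Ad-Con and 4.49, 5.21 and 5.37 in Ad-PDK4. The groups overlapped. The means were 4.98 ± 0.654 and 5.02 ± 0.470 FPKM, and the log2 difference of 0.01 had a 95% interval of -0.25 to 0.28 (adjusted p = 0.931). The receptor of IL-33 was thus read at 542 to 818 reads in libraries whose Il33 counts ran from 2 to 93. Il1rl1 is also high in mast cells and type 2 innate lymphoid cells, and the 8 markers of those cells summed to 6.12–6.73 FPKM in Ad-Con and 6.17–6.43 in Ad-PDK4, mostly Rora and Gata3, with Fcer1a and Il7r at 0 reads in all libraries. In that list Kit, the stem cell factor receptor, fell from 0.807 ± 0.0904 to 0.363 ± 0.145 FPKM (-1.01, adjusted p = 0.0319), a call that was lost without any 1 library other than Ad-PDK4 replicate 2 (-0.83 to -1.08). Kit met the 0.5 FPKM limit for testing only through Ad-Con. Cpa3, a mast cell protease named after its values were seen, had 0, 0 and 1 reads in Ad-Con and 5, 0 and 12 in Ad-PDK4. Their part in the Il1rl1 level was not tested. The gene has 5 annotated transcripts, and the soluble and membrane forms could not be told apart at gene level.

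Il1r1 and Il1rl1 lie in a 478-kb run of 6 receptor genes on chromosome 1 (40074079 to 40551705). In order the run holds Il1r2, Il1r1, Il1rl2, Il1rl1, Il18r1 and Il18rap. The decoy receptor Il1r2 had 0 to 4 reads and the IL-18 receptor chain Il18r1 0 to 3 reads. The IL-36 receptor Il1rl2 had 40, 34 and 48 reads in Ad-Con and 64, 56 and 70 in Ad-PDK4, without overlap, and was below the limit for testing. With no such limit its log2 change of 0.48 did not pass (adjusted p = 0.191 by limma). Il18rap, the accessory chain for IL-18, had 86 to 105 reads and did not pass the test (log2 change 0.08, adjusted p = 0.785). In the run, Il1r1 and Il1rl1 were read most, Il1rl2 and Il18rap at lower counts, and Il1r2 and Il18r1 at almost none. Sigirr, an inhibitory receptor of the family encoded elsewhere, had 17, 0 and 13 reads in Ad-Con against 3, 4 and 6 in Ad-PDK4.

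Irak4 encodes the kinase that starts the IRAK cascade. Its level was 7.25, 8.01 and 7.49 FPKM in Ad-Con and 6.27, 5.91 and 6.31 in Ad-PDK4, so all Ad-PDK4 libraries were lower. The mean went from 7.58 ± 0.387 to 6.16 ± 0.223 FPKM, a ratio of 0.813, and fell by 0.29 on the log2 scale (SE 0.07, 95% interval -0.45 to -0.14, adjusted p = 9.3e-03). The gene spans chromosome 15 from 94543643 to 94581815 and shares 3865 bases with Twf1 on the other strand, whose change was -0.13 (adjusted p = 0.155). The strand setting of the counting was not given in the sources used here. Of the 100-base stretches of Irak4, 2.11% also occurred in another gene.

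Irak1, on chromosome X, encodes the kinase that carries the signal from IRAK4 to TRAF6. It was the most abundant of the 10 genes, at 31.4, 28.1 and 28.1 FPKM in Ad-Con and 29.2, 29.6 and 28.1 in Ad-PDK4. The groups overlapped, and the log2 difference of -0.01 had a 95% interval of -0.15 to 0.13 (adjusted p = 0.888). With 2330 to 3015 reads it was also the most deeply read.

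Irak2 encodes a related kinase with a part in late and sustained signalling. Its level was 10.4, 9.36 and 10.2 FPKM in Ad-Con and 11.1, 10.7 and 12.3 in Ad-PDK4. The Ad-PDK4 libraries were all above the Ad-Con libraries. The change of 0.19 (95% interval 0.01 to 0.36) missed the threshold at an adjusted p of 0.0775. It passed after rescaling to TPM (0.23, adjusted p = 0.0461) and with limma-voom on the recovered reads (0.19, adjusted p = 0.0471).

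Irak3 encodes IRAK-M, the family's inhibitory member. Its level was 6.01, 6.12 and 5.72 FPKM in Ad-Con and 7.56, 7.93 and 8.51 in Ad-PDK4, and all Ad-PDK4 libraries were higher. The mean rose from 5.95 ± 0.209 to 8.0 ± 0.477 FPKM, a ratio of 1.34, and by 0.42 on the log2 scale (SE 0.07, 95% interval 0.26 to 0.58, adjusted p = 2.0e-03). The rise was 0.37 to 0.47 under all alternatives run. The gene spans chromosome 10 from 120141648 to 120202130 on the minus strand and overlaps Tmbim4 on the other strand by 541 bases. The change of Tmbim4 was 0.09 (adjusted p = 0.145). One of its 2 RefSeq promoters, that at the annotated gene start, is shown because Irak3 was the 1 kinase of the 4 that rose (GRCm38.p6, chr10:120202101-120202380, minus strand).
Irak3: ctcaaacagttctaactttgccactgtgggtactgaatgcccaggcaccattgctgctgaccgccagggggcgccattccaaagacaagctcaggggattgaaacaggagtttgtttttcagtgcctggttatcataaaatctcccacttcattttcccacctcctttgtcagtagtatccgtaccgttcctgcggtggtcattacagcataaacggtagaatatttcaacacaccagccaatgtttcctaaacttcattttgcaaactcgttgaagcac
It held none of the motifs searched.

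**Figure D2:**
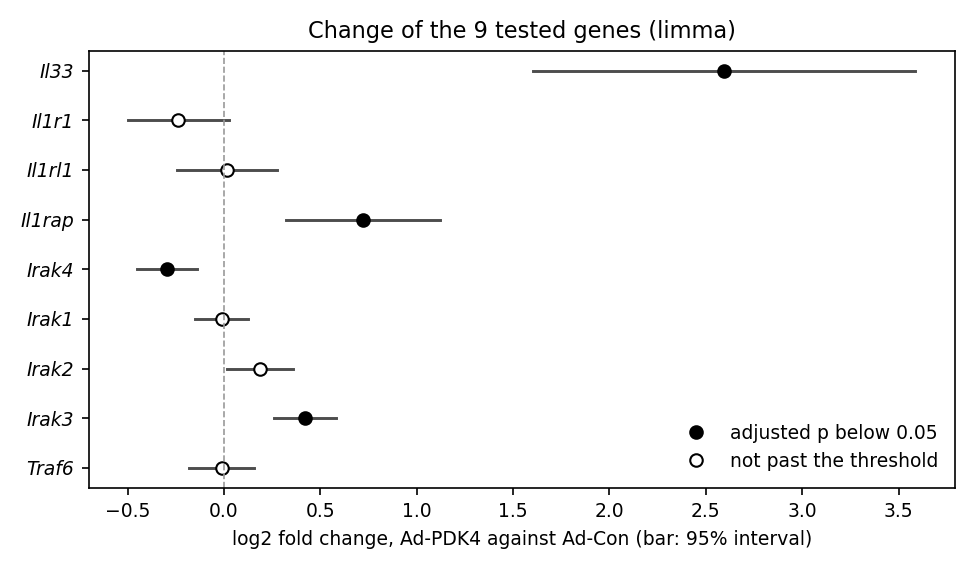
Log2 change of the 9 tested genes (Ad-PDK4 minus Ad-Con, on the log2(FPKM + 0.1) scale) with the 95% interval from limma as bars, filled points past the threshold and open points not. The intervals of Il33, Il1rap and Irak3 lie above 0 with adjusted p-values below 0.05, and that of Irak4 lies below 0.

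The balance among the 4 IRAK kinases was read as each gene's share of their summed FPKM, a level per gene length. The sum was 52.7 ± 2.05 FPKM in Ad-Con and 54.5 ± 0.638 in Ad-PDK4. Irak3 took 10.9, 11.9 and 11.1% in Ad-Con and 14.0, 14.6 and 15.4% in Ad-PDK4, a difference of 3.39 percentage points between the means of 11.3 ± 0.498% and 14.7 ± 0.716%. Irak4 took 13.2, 15.5 and 14.5% against 11.6, 10.9 and 11.4%, a difference of -3.10 points. The share of the inhibitory kinase was higher and that of the initiating kinase lower in all Ad-PDK4 libraries. Irak2 took 19.0 ± 0.840% and 20.9 ± 1.30%, also without overlap. Irak1 took 55.3 ± 1.43% and 53.1 ± 2.02%, and its groups overlapped. The ratio of Irak3 to Irak4, chosen after the values were seen, was 0.829, 0.764 and 0.763 in Ad-Con and 1.21, 1.34 and 1.35 in Ad-PDK4. Exact two-sided permutation tests over 20 arrangements gave p = 0.1 for the shares of Irak2, Irak3 and Irak4 and for the ratio, the smallest p that 3 against 3 libraries allow, and p = 0.3 for the share of Irak1 and for the sum. Adjusted over these 6 comparisons by the Benjamini-Hochberg method, the exact p-values were 0.15 and 0.3, so none passed.

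**Figure D3:**
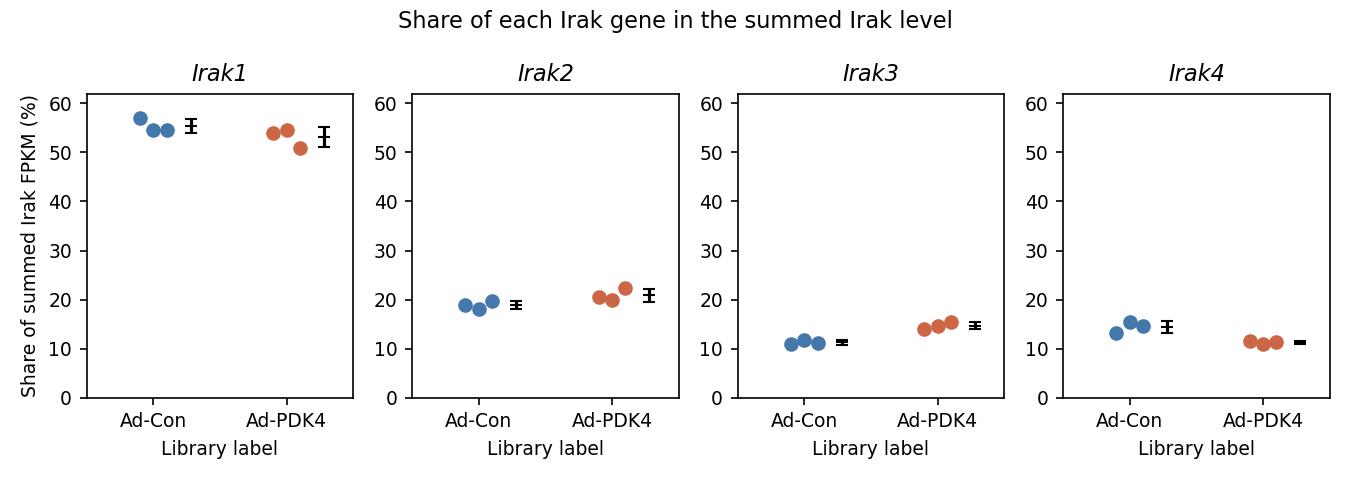
Share of each IRAK gene in the summed FPKM of the 4 genes, in percent, with a point per library (blue Ad-Con, red Ad-PDK4) and, beside the points, the mean and the SD of 3 libraries as a bar. Irak3 rises from 11.3% to 14.7% while Irak4 goes from 14.4% to 11.3%, and no library of either gene overlaps between groups.

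Traf6 encodes the ubiquitin ligase below the IRAK kinases. Its level was 5.98, 5.34 and 5.59 FPKM in Ad-Con and 5.54, 5.39 and 5.84 in Ad-PDK4. The groups overlapped, and the difference of -0.01 had a 95% interval of -0.18 to 0.16 (adjusted p = 0.921).

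The other ligands were mostly silent. Il1b, the main secreted IL-1 ligand, had 0 reads in all 6 libraries, which allows up to 3 reads in each. Il1a had 1, 2 and 0 reads in Ad-Con and 2, 0 and 3 in Ad-PDK4. The libraries that carried Il1r1 transcripts therefore held almost no transcripts of its activating ligands. Protein was not measured here. In such cells the study reports by Western blot that PDK4 overexpression induced cleaved IL-1 beta protein. Il18 had 78, 41 and 98 reads against 21, 46 and 43, with overlapping groups and a change of -0.97 that did not pass (adjusted p = 0.0986). Without Ad-Con replicate 2 it was -1.28 with an adjusted p of 0.0354, and limma-voom gave -1.01 with 0.0174. Il18bp, the secreted protein that neutralises IL-18, had 0.308, 0.565 and 0.419 FPKM in Ad-Con and 6.46, 6.84 and 6.40 in Ad-PDK4. All Ad-PDK4 libraries were far higher, and the mean rose from 0.431 ± 0.128 to 6.57 ± 0.234 FPKM, a log2 change of 3.68 (SE 0.18, adjusted p = 3.4e-06). Il18bp too met the 0.5 FPKM limit for testing only through Ad-PDK4.

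Over the 48 other pathway genes (ligands, receptors, adaptors and kinases), 34 were tested, of which 12 rose and 3 fell. This was 44.1% called, against 42.7% of all tested genes, with a median log2 change of 0.08 against -0.003. Among the adaptors and ubiquitin enzymes 5 of 18 rose and 2 fell, 38.9% called. Myd88, the adaptor between receptors and IRAK4, was 11, 9.95 and 9.74 FPKM in Ad-Con and 16.0, 17.6 and 18.9 in Ad-PDK4, and rose by 0.77 (adjusted p = 1.8e-04). Tnfaip3 encodes A20, an enzyme that edits ubiquitin on TRAF6 and ends the signal. It was 1.98, 1.84 and 1.75 FPKM against 8.21, 8.67 and 9.23 and rose by 2.17 (adjusted p = 1.0e-06). Cyld, another deubiquitinase of the pathway, rose by 0.60 (adjusted p = 1.1e-03). The other 2 rises were named after their values were seen. They were the deubiquitinase Usp4 (0.26, adjusted p = 9.6e-03) and the ubiquitin-conjugating enzyme Ube2n (0.20, adjusted p = 0.0304). The call of Ube2n was lost with no limit on mean FPKM (adjusted p = 0.0595). The Pellino ligases, which ubiquitinate IRAK1, included both falls, Peli2 (-1.06, adjusted p = 4.6e-04) and Peli3 (-0.54, adjusted p = 4.2e-03). Peli1 of the same family, named after its value was seen, did not pass (0.05, adjusted p = 0.708).

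Of the 13 genes of the IKK and MAP kinase limb, 6 rose and 1 fell, 53.8% called against 42.7% of all tested genes. The largest rises were Map3k8, a kinase upstream of ERK (0.86, adjusted p = 1.3e-03), Mapk11, a p38 kinase (0.66, adjusted p = 1.8e-03), and Mapkapk2, the p38 target that stabilises cytokine mRNA (0.55, adjusted p = 8.4e-05). Mapkapk2 was at 71.2, 67.7 and 65.2 FPKM in Ad-Con and 98.5, 99.6 and 101 in Ad-PDK4. Ikbkg, the regulatory subunit of the IKK complex, was the 1 gene that fell (-0.20, adjusted p = 0.0176). That call was lost without Ad-Con replicate 1 (-0.17), Ad-Con replicate 3 (-0.19) or Ad-PDK4 replicate 1 (-0.20) and after rescaling to TPM (-0.16).

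**Figure D4:**
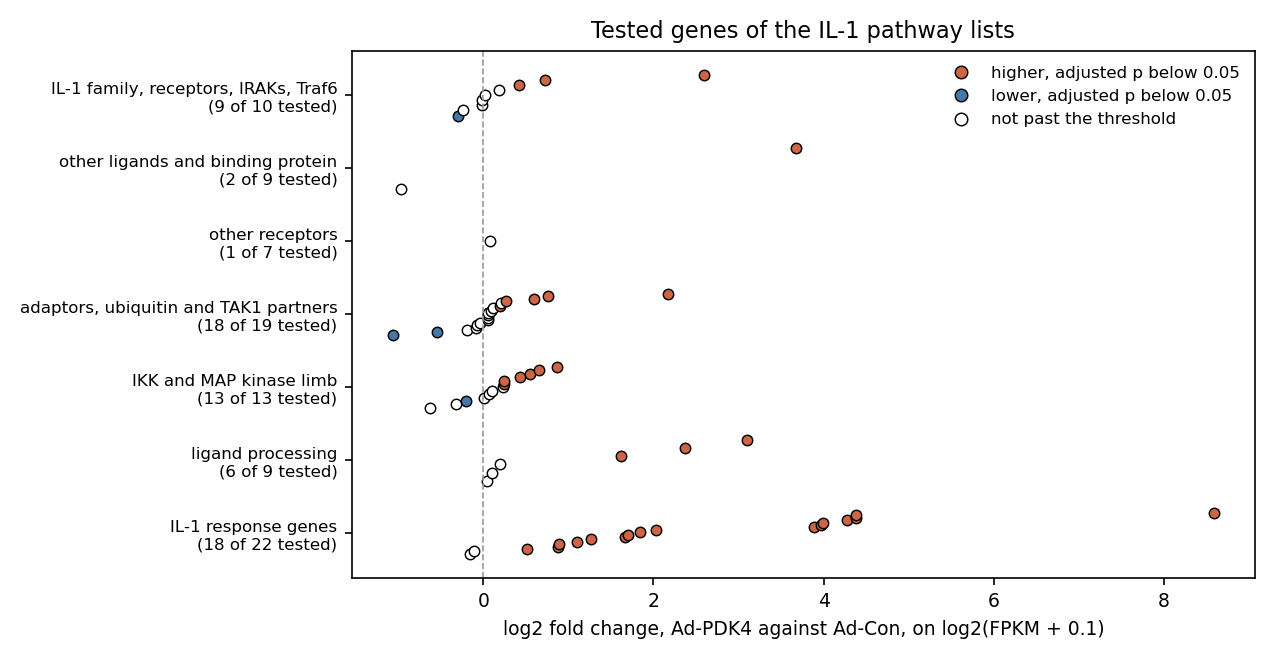
Log2 change (Ad-PDK4 minus Ad-Con) on the log2(FPKM + 0.1) scale, with a point per tested gene, a row per list, red for genes that rose, blue for genes that fell, and white for genes not past the threshold. Of the 18 IL-1 response genes 16 are red and lie above 0, while the adaptors and kinases lie on both sides of 0.

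The list of 22 genes known to respond to IL-1 had the largest median change of the lists. Of 18 tested, 16 rose, which is 88.9% against 21.8% of all tested genes, and 13 of them by at least 2-fold against 3.95%. Saa3, Lcn2 and, named after their values were seen, Il6 and Cxcl5 averaged 0.020, 0, 0.050 and 0.010 FPKM in Ad-Con. These genes met the 0.5 FPKM limit only through Ad-PDK4. Each could therefore enter the counts only as a rise, and both counts are raised by the limit. By limma 0 fell, 0 were lower at an unadjusted p under 0.05, and limma-voom also gave 0 falls. The median log2 change was 1.78 against -0.003. These genes also answer to other signals, such as Toll-like receptors and tumour necrosis factor, and earlier results of these data had already shown rises among NF-kB targets, so the count is no independent evidence. Ccl7, a monocyte chemokine, was 9.75, 12.1 and 9.02 FPKM in Ad-Con and 185, 184 and 289 in Ad-PDK4, a log2 change of 4.38 (adjusted p = 3.6e-05). Saa3, an acute-phase protein, had 2, 0 and 1 reads against 2152, 1588 and 3441. Lcn2, an iron-scavenging protein, had 0 reads in all Ad-Con libraries and 100, 61 and 160 in Ad-PDK4, at least 33.5-fold higher against a floor of 3 reads per library. The matrix metalloproteinases Mmp3 (-0.11, adjusted p = 0.381) and Mmp13 (-0.16, adjusted p = 0.169) did not pass. Without Ad-PDK4 replicate 3 Mmp13 passed as lower (-0.24, adjusted p = 0.0254). Of the 4 genes too low to test, Cxcl2 had 0 reads in Ad-Con and 34, 22 and 43 in Ad-PDK4, Ccl20 0 against 8, 16 and 25, Csf3 0 against 8, 7 and 23, and Csf2 0, 2 and 0 against 4, 2 and 6. The last 6 genes were named after their values were seen.

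Among proteases and pore proteins that process and release IL-1 family ligands the calls were upward, with 3 rises (Casp4, Gsdmd and Casp1) among 6 tested genes, against 21.8% higher among all tested genes. Casp4, the mouse caspase-11 that senses lipopolysaccharide, went from 1.65 ± 0.214 to 14.9 ± 1.53 FPKM, a log2 change of 3.10 (adjusted p = 8.4e-07). Casp1, which cleaves pro-IL-1 beta and pro-IL-18, went from 0.644 ± 0.316 to 3.55 ± 0.506 FPKM, a change of 2.37 (adjusted p = 5.0e-04). Gsdmd, which forms the release pore, rose by 1.62 (adjusted p = 9.7e-07). The study had named Casp1 and Gsdmd on these libraries, so their direction is not independent evidence. The 3 genes of this list too low to test were named after their values were seen. Nlrp3 had 0, 3 and 0 reads in Ad-Con and 1, 4 and 0 in Ad-PDK4. Pycard had 4, 0 and 8 reads against 10, 7 and 9, and Aim2 had 0, 3 and 0 against 18, 24 and 16. With no limit on mean FPKM, the log2 change of Aim2 was 1.76 (adjusted p = 0.0113 by limma), where 20.5% of 25202 genes were called.

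Markers of other cells were read beside these groups. Of 12 macrophage markers, the 6 genes Ptprc, Tyrobp, Itgam, C1qa, C1qb and C1qc had 0 reads in all libraries. The 12 markers summed to 15.0–18.1 FPKM in Ad-Con and 6.08–7.57 in Ad-PDK4, mostly Cd68, and without Cd68 1.76–2.07 and 2.72–2.98. Cd68 fell from 14.2 ± 1.78 to 4.24 ± 0.991 FPKM (-1.74, adjusted p = 4.4e-04 by limma). Csf1r and Lyz2 were named after their values were seen. Csf1r, below the limit for testing, had 11, 23 and 35 reads in Ad-Con and 56, 62 and 61 in Ad-PDK4. Lyz2 had 42, 30 and 40 reads against 47, 40 and 65 and did not pass (0.36, adjusted p = 0.0791). The 7 endothelial markers summed to 0.617–0.798 and 0.885–1.18 FPKM, with Emcn and Tie1 at 0 reads. The part of other cells in the rise of Il33 and of the IL-1 response genes was not tested.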

How the data were processed

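The authors deposited 1 table of FPKM per gene and library, with the gene length in bases that they had used. The submitters' processing notes name CASAVA 1.8, fastp, HISAT2 2.0.5, featureCounts 1.5.0-p3, DESeq2 1.20.0 and the build GRCm39, although 98.3% of the gene IDs found in GENCODE mouse release M21 had the coordinates of GRCm38, which are used here. FPKM times length gave whole reads for 100% of values within 0.01 reads. Groups were compared by limma 3.58.1 (R 4.3.3) on the log2 of the deposited FPKM plus 0.1, over all 6 libraries, without covariates, with trend and robust moderation and Benjamini-Hochberg adjustment over all genes that averaged 0.5 FPKM or more. The analysis was tested on simulated data. Shares were compared by exact permutation.

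Groups came from the treatment labels. The 10 genes and all lists were chosen with earlier results of these data known. Named were these genes, all other ligands and receptors, the 3 largest rises and 3 largest falls past the threshold in each list, and the 3 genes most like Il33. Lists covered pathway genes, IL-1 responders, ligand processing, type I interferons and cell markers. Promoters were RefSeq windows, found for all 10 genes. Protein sequences were not used here. The alternatives were other pseudocounts, filters and scalings, plain moderation, a replicate block, limma-voom on recovered reads, and leaving out each library.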

Additional observations from a re-analysis of the deposited data

How the results depend on the processing

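Of 612 refits over 42 single genes and the alternatives, 595 were scored as the same, and 10 lost and 5 gained the call. The same meant the same side of the threshold, except for Il1rn. It had no main test, so its refits were scored by the size of the log2 change alone. The other 2 of the 612 moved (Il1rn, log2 change 0.11 at a pseudocount of 1 and 1.33 at 0.01). In 0 refits did the direction reverse with either fit past the threshold. Changes near 0 that did not pass took either sign among the refits. They ran from -0.06 to 0.12 for Il1rl1, -0.07 to 0.04 for Irak1 and -0.06 to 0.03 for Traf6. The count of rises among the 10 genes was 3, with 4 under TPM and limma-voom (Irak2 added) and 1 where a mean of 5 FPKM was required, which left 6 of the genes to test. The count of falls was 1 except with plain moderation, where it was 2 (Irak4 and Il1r1). Falls among the other pathway genes were 6 with limma-voom. Leaving out each library gave 2 to 5 falls there, with 5 without Ad-Con replicate 2 or Ad-PDK4 replicate 3, and 0 to 1 falls among the IL-1 response genes. The cause was not tested. Libraries with the same replicate number did not deviate together (correlations of same-numbered deviations -0.046, -0.031 and -0.001). Whether they were prepared as pairs cannot be read from these correlations, and the labels do not say. A replicate block gave 3 rises and 1 fall among the 10 genes. Over all tested genes it gave 2759 rises and 2626 falls, against 2928 and 2798. Under the block Kit lost its call (adjusted p = 0.0542). The Irak3 share differed by 2.85 points on reads and by 3.02 to 3.74 with each library left out. Depth limits Il33 and Il1rn in Ad-Con, where counts were 2 to 14 and 4 to 5 reads.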

Other observations

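Type I interferon genes were nearly silent. Of the 10 genes on the list none reached the limit for testing, and 8 had 3 reads or fewer in every library. Ifnb1, named after its values were seen, had 0 reads in all 3 Ad-Con libraries and 7, 5 and 5 reads in the Ad-PDK4 libraries.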
